A study of Oryza sativa Japonica Group with 10 samples.

Results

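A stretch of rice chromosome 11 that is 2.8 Mb long, from 18.4 to 21.2 Mb in the coordinates of the deposited tables, was examined gene by gene. It was chosen by measured values, because genes whose levels differed between OsJAZ1-OE and its wild type lay close together there. The tables listed 400 gene IDs inside it, of 55689 in all, and 139 of these reached at least 1 FPKM in 2 or more of the 10 libraries. FPKM counts fragments relative to the transcript's length and to the mapped fragments of the library, and it was summed over the transcripts of a gene. Over the whole genome 22159 genes reached the same minimum. Because the differences between the lines chose the segment, they are given below as a description. Calls between the lines only mark which genes passed the threshold of the fit, no p-value is printed for them and nothing rests on them. The response to drought within a genotype played no part in the choice and was tested. The difference of that response between the genotypes was tested too. It equals the line difference under drought minus that with normal watering, so it is not independent of the choice.

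Shoots of rice at the 4-leaf stage were compared between ZH11, the japonica variety Zhonghua 11, and overexpression plants labelled OsJAZ1-OE. These had been made in ZH11 by Agrobacterium transformation and are called a line below. The study had selected 2 independent lines and does not say which of them was sequenced. In the OsJAZ1-OE plants OsJAZ1 was driven by the OsLEA3 promoter, which is induced by drought. Plants of both genotypes grew in barrels with normal watering or under drought, with a soil water content of 10.0 to 15.0%. There were 3 libraries each of ZH11 normal and OsJAZ1-OE normal and 2 each of ZH11 drought and OsJAZ1-OE drought. The study had left out 1 drought library of each genotype for its low correlation. The spread between the drought libraries may therefore be understated, and p-values that involve them may be too small. The labels do not separate lines within OsJAZ1-OE. An effect of the transgene and any other difference between these plants and ZH11 therefore cannot be told apart. The study calls its replicates biological without saying which plants went into each, so the p-values measure the spread between these libraries, whatever its source.

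JAZ proteins are repressors of jasmonate signalling. They bind transcription factors of the MYC type and are degraded when the hormone is perceived, which frees those factors. Of the 139 genes, 5 carry an annotation in the study's tables. As the study describes those tables, they list genes it had called under drought in these same libraries. These 5 are therefore named through their drought response and not independently of it. They are a chalcone synthase, which makes the first committed compound of flavonoid synthesis, a wall-associated kinase (OsWAK120) of the family of receptors that sit between cell wall and cytoplasm, a glycosyl hydrolase of family 16, a family that cuts or rejoins cell wall glucans, a GDSL-like lipase/acylhydrolase and a heparan-alpha-glucosaminide N-acetyltransferase, a name that comes from a human lysosomal enzyme. The other 134 have no name in the sources used here and appear by their locus ID.

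Library totals lay between 32396154 and 34027909 estimated counts. OsJAZ1 was at 110.2 to 147 FPKM in the ZH11 libraries and at 1177 to 1388 FPKM in those of OsJAZ1-OE, so its level followed the labels. In OsJAZ1-OE it was at 1200 to 1281 FPKM with normal watering, within its range under drought (1177 to 1388 FPKM). The transgenic line thus held a high OsJAZ1 level without drought too. The tissue label was checked with 5 leaf markers (Rubisco small subunits, a chlorophyll a/b-binding protein and a photosystem I subunit), whose summed level was 9422 to 11194 FPKM in the normal libraries and 6468 to 7387 FPKM in the drought libraries. Of these, 4 were lower in every drought library than in any normal one of either genotype. The Rubisco small subunit LOC_Os12g17600, for example, was at 2700 to 3113 FPKM with normal watering and at 960 to 1101 FPKM under drought. The fifth, the photosystem I subunit LOC_Os05g48630, was higher in every drought library (1869 to 2315 FPKM) than in any normal one (1484 to 1833 FPKM). Of 4 root markers, only the silicon transporter Lsi1 was at 1 FPKM or more in every library (4.52 to 11.6 FPKM), and it was higher in every drought library than in any normal one. Lsi2 and the nitrate transporter NRT2.1 were under 0.1 FPKM in every library, and RCc3 was at 0.090 to 0.654 FPKM in the normal libraries and at 0 in the drought libraries. The summed level of the 4 was 4.93 to 6.05 FPKM with normal watering and 7.02 to 11.6 FPKM under drought. The part of these markers in the drought results below was not tested. Over the segment's 139 genes, replicates of a group correlated at 0.952 to 0.985 on the log2(FPKM + 0.1) scale.

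Most of the 139 genes were expressed at low or moderate levels. The median over libraries was under 1 FPKM for 11 genes, 1 to 10 FPKM for 68, 10 to 100 FPKM for 53 and 100 FPKM or more for 7. Their middle value was 7.23 FPKM, against 10.03 FPKM for all genes that reached the minimum. At least 1 FPKM was measured in every library for 112 genes. The edgeR fit kept 136 of the 139, and the other 3 (LOC_Os11g33990, LOC_Os11g34730 and LOC_Os11g34780) had at most 8.05 counts in any library and were not tested.

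Just inside the FPKM minimum were LOC_Os11g34730, with a second-highest library of 1.10 FPKM, and a gene model that the authors added, Oryza_sativa_newGene_499, with 1.09 FPKM. Just outside it were LOC_Os11g32490 (0.993 FPKM) and LOC_Os11g35330 (0.849 FPKM).

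Of the 136 genes tested, 7 were called higher in OsJAZ1-OE with normal watering and again under drought. Called means that the adjusted p was under 0.05 and the log2 fold change (log2FC) at least 1 in either direction. The share called higher in both conditions was 1.11% over all genes tested and 0.93% over the 21711 tested genes that reached the FPKM minimum. The share over all genes called lower in both was 0.101%, with 0 of the 136. By condition, 8 of the 136 were called higher with normal watering (1.34% over all genes) and 8 under drought (1.51%). None was called lower in either (0.241% and 0.217% over all genes). These counts follow from how the segment was chosen and nothing is read from them. The 7 genes lay in 2 groups at the ends of the segment, 4 within 89.2 kb at the start and 3 within 409 kb near the end, with 2198 kb between the groups.

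**Figure D1:**
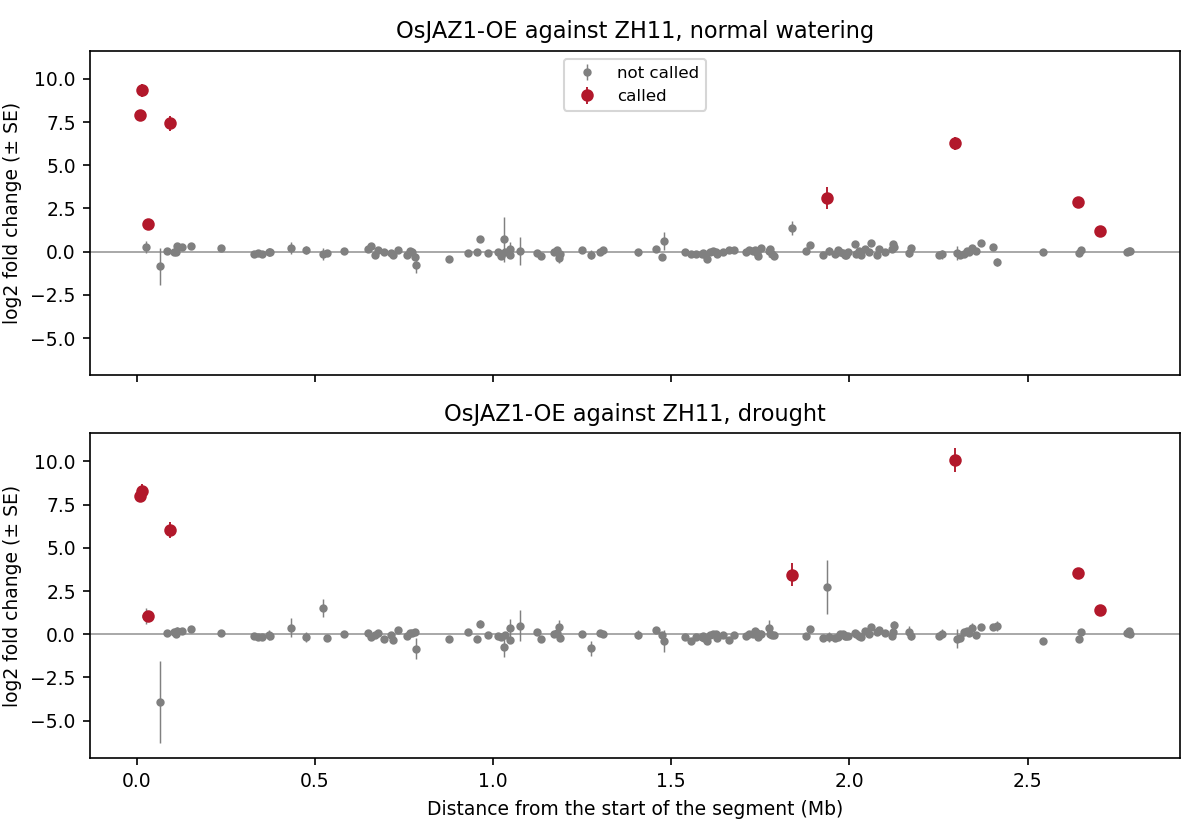
Log2 fold change (log2FC) of OsJAZ1-OE against ZH11 (y axis, ± SE) for the 136 tested genes by their distance from the start of the segment in Mb (x axis), with normal watering (top, 3 against 3 libraries) and under drought (bottom, 2 against 2). Called genes are red, and 7 of them are red in both panels, at the 2 ends. The fitted values of LOC_Os11g31510 in both panels and of LOC_Os11g35300 under drought rest on a ZH11 group with 0 to 3 counts and are not a measure of size.

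The first gene of the segment, LOC_Os11g31500 (chr11:18409159-18421525, minus strand), was near 0 in ZH11 and at 2.42 to 3.03 FPKM in OsJAZ1-OE. ZH11 normal libraries gave 0.011, 0.024 and 0.0072 FPKM, and OsJAZ1-OE normal libraries 3.03, 2.80 and 2.91 FPKM. Under drought ZH11 gave 0.019 and 0.0044 FPKM and OsJAZ1-OE 2.42 and 2.77 FPKM. The lowest OsJAZ1-OE library had 878 counts and the highest ZH11 library 6.45, and the groups did not overlap. The log2FC was 7.89 ± 0.21 (SE) with normal watering and 7.98 ± 0.27 under drought. The ZH11 libraries held only 1.19 to 6.45 counts, so these SE values may be smaller than the counting error. The same limit applies to LOC_Os11g31630 and LOC_Os11g35300 below, which also have few counts in ZH11.

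LOC_Os11g31510 (chr11:18415412-18421525, plus strand) lies wholly within the preceding gene on the other strand, with 6114 shared bases. The library kit as described does not record strand, so the reads of the pair cannot be told apart and both genes may report one signal. Its level was 0.994, 1.14 and 1.16 FPKM in OsJAZ1-OE normal and 1.24 and 1.63 FPKM in OsJAZ1-OE drought, against 0.013, 0 and 0 FPKM in ZH11 normal and 0.016 and 0 FPKM in ZH11 drought. ZH11 held 0.884 counts over its 3 normal libraries and 2.06 over its 2 drought libraries. The ratio of the group totals was 1011 with normal watering (95% exact counting interval 156 to 34451) and 339 under drought (101 to 3029). These intervals cover counting error only. Their width reflects the few reads in ZH11.

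LOC_Os11g31630, at 93.2 kb from the start of the segment, showed the same kind of difference. ZH11 normal was at 0, 0.016 and 0.043 FPKM and ZH11 drought at 0.015 and 0.041 FPKM. OsJAZ1-OE normal was at 2.75, 2.02 and 2.33 FPKM and OsJAZ1-OE drought at 1.79 and 2.097 FPKM. Every OsJAZ1-OE library was above every ZH11 library, and the log2FC was 7.42 ± 0.45 with normal watering and 6.02 ± 0.48 under drought. Of its 5 listed transcripts, 4 carried the level in OsJAZ1-OE normal, with means of 0.502 to 0.680 FPKM, while the shortest had a mean of 0.034 FPKM.

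LOC_Os11g31540, 30.5 kb from the start, differed less and was expressed in both lines. ZH11 gave 2.46, 3.20 and 3.48 FPKM with normal watering and 2.91 and 2.76 FPKM under drought. OsJAZ1-OE gave 8.63, 7.33 and 12.8 FPKM with normal watering and 6.70 and 5.67 FPKM under drought. The lines did not overlap, with a log2FC of 1.61 ± 0.21 and of 1.08 ± 0.26, and the call under drought was lost when any 1 library other than OsJAZ1-OE normal 2 or 3 was left out, with log2FC values of 0.96 to 1.20 over these 8 fits.

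The 3 genes that lay between these 4 were called in neither condition. LOC_Os11g31620, 85.3 kb from the start and 1 gene before LOC_Os11g31630 on the list, was at 10.1 to 11.7 FPKM in all 10 libraries, and its log2FC was 0.02 ± 0.05 with normal watering and 0.07 ± 0.07 under drought. LOC_Os11g31590 ranged from 0 to 2.78 FPKM within ZH11 normal, and LOC_Os11g31530 differed by 0.27 ± 0.34 and 1.06 ± 0.46. Just beyond LOC_Os11g31630, LOC_Os11g31640 and LOC_Os11g31650 had log2FC values of 0.01 and 0.00 with normal watering.

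The border at the start of the segment did not separate differing from equal genes. The nearest genes outside that reached the minimum, LOC_Os11g31470 and LOC_Os11g31450, were higher in OsJAZ1-OE by a log2FC of 0.88 ± 0.06 and 0.76 ± 0.15 with normal watering and of 0.53 ± 0.08 and 1.06 ± 0.18 under drought. At the other end, the last gene inside, LOC_Os11g36060, was at 13.0 to 15.1 FPKM in all libraries and differed by 0.02 ± 0.08 and 0.03 ± 0.10. Outside it, LOC_Os11g36070 differed by 0.01 ± 0.05 and -0.04 ± 0.06. The gene after that, LOC_Os11g36110, differed by 0.96 ± 0.14 and 0.99 ± 0.17 in the fit of its counts. Its mean FPKM, summed over transcripts, differed more, at 1.31 in ZH11 and 7.45 in OsJAZ1-OE with normal watering and at 0.465 and 8.56 under drought.

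At the far end of the segment, LOC_Os11g35300 (chr11:20696033-20701666, plus strand) was at or near 0 in ZH11 and well above it in the overexpression line. OsJAZ1-OE normal was at 7.83, 8.11 and 7.42 FPKM and OsJAZ1-OE drought at 8.30 and 7.94 FPKM. ZH11 normal was at 0.098, 0.175 and 0 FPKM, and both ZH11 drought libraries were at 0. With normal watering the log2FC was 6.29 ± 0.37. Under drought the level was at least 45.6-fold higher in OsJAZ1-OE, taking 3 counts per library as the floor for ZH11.

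LOC_Os11g35850 (chr11:21040863-21044057, plus strand) was expressed at a low level in ZH11. The ZH11 libraries gave 0.539, 0.532 and 0.511 FPKM with normal watering and 0.272 and 0.256 FPKM under drought. The OsJAZ1-OE libraries gave 4.29, 3.54 and 3.77 FPKM and then 3.10 and 2.63 FPKM. The log2FC was 2.89 ± 0.13 with normal watering and 3.53 ± 0.17 under drought. Its neighbour on the other strand, OsWAK120 (LOC_Os11g35860), is the next gene on the list and differed by -0.10 ± 0.10 and -0.30 ± 0.13.

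The putative chalcone synthase LOC_Os11g35930 (chr11:21102794-21104586, plus strand) was the most highly expressed of the 7. ZH11 normal gave 13.7, 10.9 and 8.92 FPKM and OsJAZ1-OE normal 28.3, 27.8 and 21.3 FPKM. Under drought ZH11 gave 5.15 and 5.72 FPKM and OsJAZ1-OE 15.9 and 14.8 FPKM. The level was higher in OsJAZ1-OE without overlap in both conditions, by a log2FC of 1.18 ± 0.15 and 1.42 ± 0.20. Chalcone synthases are a gene family of similar sequence, and how reads that fit several copies were divided is not stated, so part of this count may belong to a copy elsewhere.

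A further pair of genes, in the inner part of the segment, had lines without overlap and a log2FC of at least 1 in both conditions, but were called in 1 condition only. LOC_Os11g34710 was at 0.063, 0.186 and 0.165 FPKM in ZH11 normal and at 0.422, 1.38 and 2.04 FPKM in OsJAZ1-OE normal, where it was called (3.12 ± 0.65). Under drought it was at 0 and 0.044 FPKM in ZH11 and 0.067 and 0.223 FPKM in OsJAZ1-OE, with at most 6.11 counts in a library. The call was lost without any 1 of 4 normal libraries, ZH11 normal 1 or 3 or OsJAZ1-OE normal 2 or 3, with log2FC values of 2.61 to 3.30.

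LOC_Os11g34570 was at 1.31, 0.541 and 1.28 FPKM in ZH11 normal and at 2.66, 1.81 and 2.56 FPKM in OsJAZ1-OE normal. Under drought it was at 0.200 and 0.132 FPKM in ZH11 and at 0.931 and 1.85 FPKM in OsJAZ1-OE, where it was called (3.44 ± 0.66). That call was lost without ZH11 drought 1, ZH11 drought 2 or OsJAZ1-OE drought 2, with log2FC values of 4.21, 2.94 and 3.06. The gene model overlaps 3 others, so its reads may come in part from them.

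**Figure D2:**
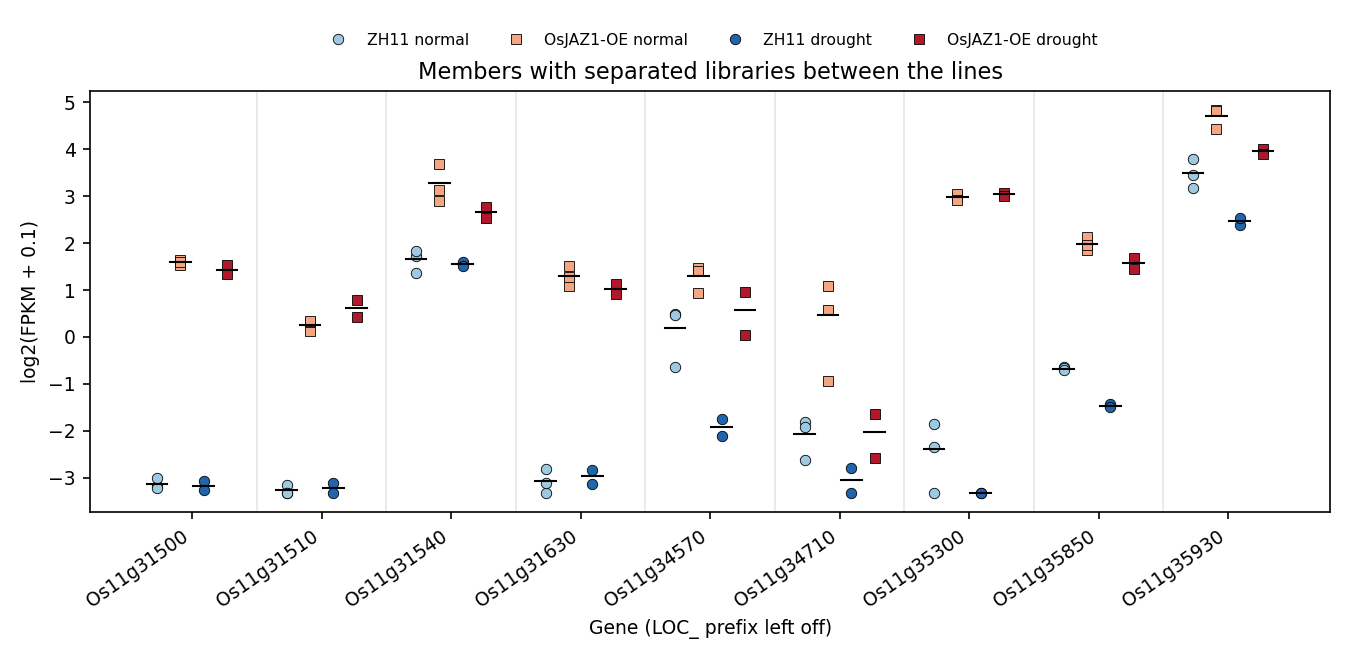
Level on the log2(FPKM + 0.1) scale (y axis) in each of the 10 libraries for the 9 genes with lines that did not overlap and a log2FC of at least 1 in both conditions (x axis, in map order). Circles are ZH11, squares OsJAZ1-OE, pale symbols normal watering and dark symbols drought, and a bar marks log2(mean FPKM + 0.1) of each group. The OsJAZ1-OE squares sit above the ZH11 circles of the same watering for each gene, and LOC_Os11g31500, LOC_Os11g31510 and LOC_Os11g31630 sit near the bottom of the scale in every ZH11 library.

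Between the 2 groups of called genes lay 113 of the 139 genes, of which 110 were tested. None of the 110 was called in both conditions, and the 2 called in 1 condition are the pair just described. Their median absolute log2 difference between the lines was 0.12 with normal watering and 0.13 under drought, beside 0.12 and 0.15 over all genes tested. Over the whole segment, 116 of 136 genes differed by less than 0.5 in both conditions. The lines did not overlap, on the same side in both conditions, for 25 of 136 genes (18.4%), 16 of them higher and 9 lower in OsJAZ1-OE, and 11.1% of all genes tested did so.

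A few genes of the inner part that differed by less than the fold limit are given as examples. Apart from LOC_Os11g32650, they were picked after their values were seen. LOC_Os11g32650, the most abundant gene of the segment, was at 353, 388 and 448 FPKM in ZH11 normal and at 311, 286 and 299 FPKM in OsJAZ1-OE normal. Under drought it was at 401 and 443 FPKM against 361 and 333 FPKM. It was thus lower in OsJAZ1-OE without overlap, by a log2FC of -0.45 ± 0.08 with normal watering and -0.30 ± 0.10 under drought. LOC_Os11g32780 differed the other way, by 0.71 ± 0.16 and 0.61 ± 0.19, and LOC_Os11g34920 by 0.52 ± 0.11 and 0.41 ± 0.13. LOC_Os11g34160 was lower, by -0.43 ± 0.10 and -0.39 ± 0.12. The values of LOC_Os11g32510 were larger, at -0.79 ± 0.47 and -0.84 ± 0.61, but its lines overlapped in both conditions.

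Of the 261 gene IDs in the segment that did not reach the FPKM minimum, 128 were listed at 0 in every library and 36 passed the filter of the fit. Of these 36, 4 were also called higher in OsJAZ1-OE in both conditions. LOC_Os11g35610 and LOC_Os11g35970 were at 0 in all 5 ZH11 libraries and at 13.4 to 33.3 and 9.93 to 21.8 counts in the OsJAZ1-OE libraries. LOC_Os11g35630 was at 0.041 to 0.094 FPKM in ZH11 and at 0.557 to 0.777 FPKM in OsJAZ1-OE. LOC_Os11g32060 was at 0 to 0.0096 FPKM in ZH11 and at 0.093 to 0.217 FPKM in OsJAZ1-OE. The first 3 lie near the end of the segment, between LOC_Os11g35300 and the last gene.

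With these 4 included, 11 of the 172 genes tested in the segment (6.40%) were called in both conditions. The segment was chosen for such genes, so the shares and bins below are a description. Nothing is read from how the segment compares with other regions. In the flanking stretches of equal length the count was 3 of 112 (2.68%) before the segment and 3 of 152 (1.97%) after it. On the rest of chromosome 11 it was 20 of 1293 (1.55%), and over all genes outside the segment 291 of 24678 (1.18%). All 12 chromosomes held such genes, from 0.58% of those tested on chromosome 3 to 2.47% on chromosome 10. Of the 302 genes called in both conditions over the genome, 277 were higher in OsJAZ1-OE. Of these, 133 were under 0.1 FPKM in every ZH11 library. They include 3 of the segment's 139 genes and also the 4 called genes of the segment that did not reach the FPKM minimum. Within the segment, the first bin of 0.4 Mb held 4 of 21 genes and the last 5 of 20, and the 5 bins between them held 2 in all. Over the whole genome, 4 of 942 such bins held 4 or more genes called in both conditions. Of these 4 bins, 2 were in the segment and the others on other chromosomes.

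**Figure D3:**
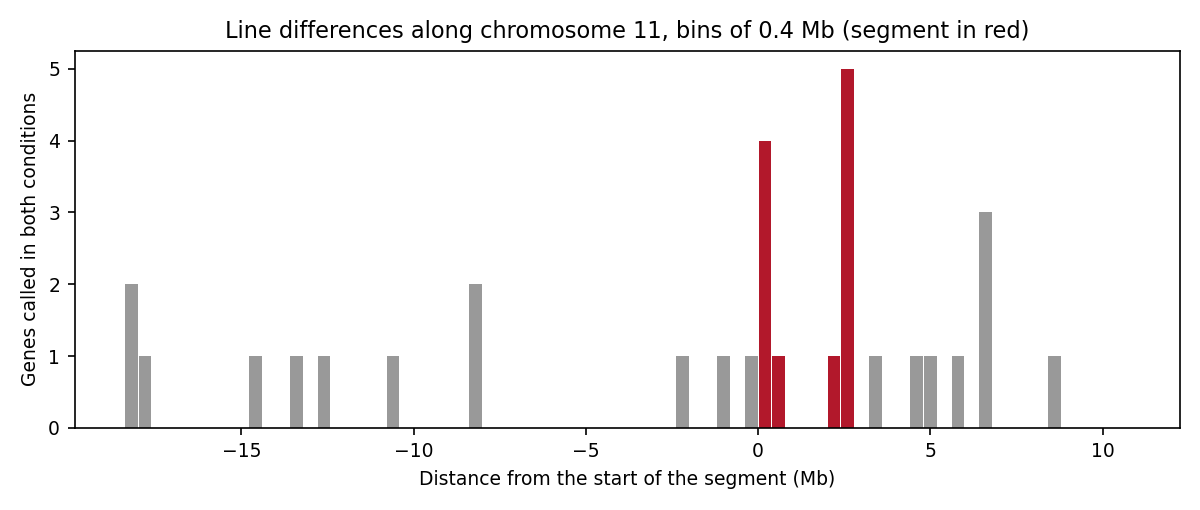
Number of genes called in both conditions (y axis) in bins of 0.4 Mb along chromosome 11, by distance from the start of the segment in Mb (x axis), with the segment's bins in red. The first red bin holds 4 genes and the last 5, and no other bin of the chromosome holds more than 3. The segment was chosen for this pattern, so the plot is a description.

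Under drought 14 of the 136 genes were called in at least 1 genotype, 3 of them higher and 11 lower. The share over all genes called in at least 1 genotype, or in both, was not computed. Nothing is therefore read from this count or from those for both genotypes below. In ZH11, 3 of the 136 genes were called higher under drought (5.33% over all genes) and 8 lower (9.03%). In OsJAZ1-OE, 2 were called higher (4.36%) and 8 lower (6.62%). In all, 8.09% of the segment's tested genes passed in ZH11 and 7.35% in the overexpression line, beside 14.4% and 11.0% of all genes, and the difference between these shares was not tested. The median log2FC over the 136 genes was -0.03 in both ZH11 and OsJAZ1-OE, and over all genes it was 0.00 in both. With no fold limit, 53 of the 136 passed the adjusted p in ZH11 (44.4% over all genes) and 47 in OsJAZ1-OE (39.0%). The 40 that passed in both genotypes all moved in the same direction. How often this held over all genes was not computed, so it is not read as a trait of the segment. Of the 14 called genes, 6 (LOC_Os11g31980, LOC_Os11g32890, LOC_Os11g34570, LOC_Os11g34710, LOC_Os11g35240 and LOC_Os11g35450) reached 1 FPKM in 2 or more libraries of only 1 condition. They were on the list through the condition in which they were high, so their drought values are a description, without a p. Over the 126 genes that reached the minimum in 2 or more libraries of each condition, 1 was called higher and 5 lower in ZH11, and 5 were called in OsJAZ1-OE, each of them lower. The share over all genes with the same minimum in each condition was not computed, so nothing is read from these counts. In whole shoots, fewer cells of a type and less RNA per cell cannot be told apart.

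LOC_Os11g32890 was near the bottom of the range with normal watering. It was at 0.442, 0.102 and 0.093 FPKM in ZH11 normal and at 5.75 and 24.8 FPKM in ZH11 drought. In OsJAZ1-OE it was at 0.501, 0 and 0.494 FPKM with normal watering and at 7.17 and 11.6 FPKM under drought. Every drought library was above every normal one, although the 2 ZH11 drought libraries differed several-fold. The log2FC was 6.11 ± 0.82 in ZH11 and 4.67 ± 0.79 in OsJAZ1-OE.

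LOC_Os11g35240 was at 1.09, 0.861 and 0.741 FPKM in ZH11 normal and at 1.90 and 2.57 FPKM in ZH11 drought. In OsJAZ1-OE it was at 0.966, 0.665 and 0.754 FPKM and then at 2.33 and 2.27 FPKM. The drought libraries were above the normal ones in both genotypes, with a log2FC of 1.34 ± 0.25 in ZH11 and 1.54 ± 0.25 in OsJAZ1-OE.

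LOC_Os11g32260 rose from 11.0, 12.9 and 12.01 FPKM to 22.3 and 25.0 FPKM in ZH11 and from 13.0, 15.5 and 15.3 FPKM to 18.5 and 23.6 FPKM in OsJAZ1-OE. Its log2FC was 1.00 ± 0.10 in ZH11 (adjusted p = 2.4e-05, edgeR quasi-likelihood test), at the fold limit, and 0.55 ± 0.10 in OsJAZ1-OE (edgeR adjusted p = 0.0018). Without ZH11 normal 1 the ZH11 value was 0.95 and without ZH11 drought 2 it was 0.89, which ends the call by the limit alone.

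In both genotypes, 5 genes were called lower under drought, and the share over all genes was not computed. LOC_Os11g32100 went from 9.25, 13.5 and 5.83 FPKM to 1.10 and 1.11 FPKM in ZH11 and from 6.03, 9.69 and 11.4 FPKM to 1.97 and 4.43 FPKM in OsJAZ1-OE. Its log2FC was -3.15 ± 0.48 in ZH11 (edgeR adjusted p = 0.00036) and -1.51 ± 0.41 in OsJAZ1-OE (edgeR adjusted p = 0.014). Normal and drought libraries did not overlap in either genotype. Without OsJAZ1-OE drought 1 the OsJAZ1-OE value was -1.01 and no longer passed (edgeR adjusted p = 0.12).

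LOC_Os11g31980 was at 2.48, 4.79 and 1.76 FPKM in ZH11 normal and at 0.346 and 0.695 FPKM in ZH11 drought, and at 2.50, 2.92 and 5.16 FPKM and then 0.582 and 0.753 FPKM in OsJAZ1-OE. The log2FC was -2.54 ± 0.49 in ZH11 and -2.38 ± 0.47 in OsJAZ1-OE. LOC_Os11g35400 fell from 6.58 to 12.8 FPKM over the 3 ZH11 normal libraries to 2.36 and 2.51 FPKM under drought, and from 8.79 to 11.9 FPKM to 2.24 and 3.90 FPKM in OsJAZ1-OE. The fall was close in both genotypes, at -1.91 ± 0.28 (edgeR adjusted p = 0.00025) and -1.76 ± 0.27 (edgeR adjusted p = 0.000485) on the log2 scale.

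LOC_Os11g35450 was at 0.921 to 1.01 FPKM in ZH11 normal and 0.285 and 0.305 FPKM in ZH11 drought, and at 1.25 to 1.40 FPKM and then 0.416 and 0.331 FPKM in OsJAZ1-OE. Its log2FC was -1.68 ± 0.18 in ZH11 and -1.75 ± 0.17 in OsJAZ1-OE. It is reported with LOC_Os11g31530 for completeness of the called genes, and both were chosen for naming after their values were seen. LOC_Os11g31530 fell in ZH11 from 11.1, 5.73 and 4.48 FPKM to 2.49 and 2.11 FPKM (log2FC -1.59 ± 0.43, edgeR adjusted p = 0.011). Its value in OsJAZ1-OE was -0.81 ± 0.39 and was not called. The ZH11 call was lost without either ZH11 drought library (edgeR adjusted p = 0.058 without replicate 1 and 0.060 without replicate 2).

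The glycosyl hydrolase of family 16, LOC_Os11g33270, fell in both genotypes. ZH11 went from 2.71, 5.46 and 2.83 FPKM to 1.28 and 1.31 FPKM and OsJAZ1-OE from 3.39, 3.14 and 3.55 FPKM to 0.707 and 0.791 FPKM. The log2FC was -1.57 ± 0.33 in ZH11 (edgeR adjusted p = 0.0031) and -2.21 ± 0.37 in OsJAZ1-OE (edgeR adjusted p = 0.00084). Drought libraries were below all normal libraries of their genotype.

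**Figure D4:**
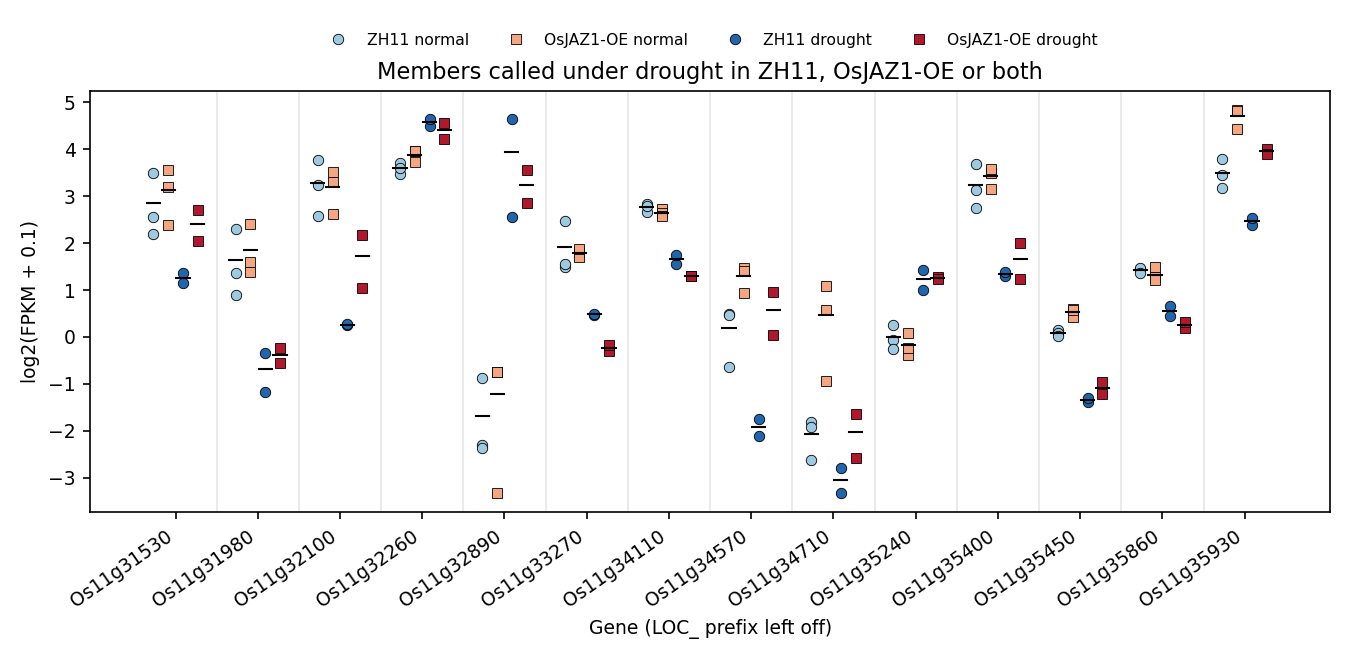
Level on the log2(FPKM + 0.1) scale (y axis) in each library for the 14 genes called under drought in ZH11, OsJAZ1-OE or both (x axis, in map order). Circles are ZH11, squares OsJAZ1-OE, pale symbols normal watering and dark symbols drought, and a bar marks log2(mean FPKM + 0.1) of each group. LOC_Os11g32890, LOC_Os11g35240 and LOC_Os11g32260 are higher under drought and the other 11 are lower.

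The other 4 annotated genes were also lower under drought in both genotypes. The annotated genes have names because the study had called them under drought in these libraries. That each of them responded is therefore not read as a result, and their p-values add no independent support. OsWAK120 (LOC_Os11g35860) was at 2.63, 2.68 and 2.48 FPKM in ZH11 normal and at 1.47 and 1.27 FPKM in ZH11 drought, and at 2.69, 2.32 and 2.21 FPKM and then 1.04 and 1.15 FPKM in OsJAZ1-OE. It fell by a log2FC of -0.91 ± 0.11 in ZH11 (edgeR adjusted p = 1e-04) and -1.11 ± 0.12 in OsJAZ1-OE (edgeR adjusted p = 3.9e-05). The N-acetyltransferase LOC_Os11g34110 fell from 6.24 to 7.00 FPKM to 2.83 and 3.26 FPKM in ZH11 and from 5.86 to 6.52 FPKM to 2.37 and 2.36 FPKM in OsJAZ1-OE. Its log2FC was -0.93 ± 0.11 (edgeR adjusted p = 5.9e-05) and -1.17 ± 0.11 (edgeR adjusted p = 1.9e-05). Both genes passed the fold limit in OsJAZ1-OE and missed it narrowly in ZH11.

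The GDSL-like lipase LOC_Os11g31940 was at 2.27 to 4.10 FPKM in the normal and 1.53 to 1.71 FPKM in the drought libraries of both genotypes. It passed the adjusted p in each genotype with a log2FC just short of the limit, -0.92 ± 0.26 in ZH11 (edgeR adjusted p = 0.014) and -0.97 ± 0.26 in OsJAZ1-OE (edgeR adjusted p = 0.013). The chalcone synthase LOC_Os11g35930, with the levels given above, fell by -1.09 ± 0.19 in ZH11 (edgeR adjusted p = 0.00082) and by -0.85 ± 0.17 in OsJAZ1-OE (edgeR adjusted p = 0.0026). Without ZH11 normal 1 the ZH11 value was -0.92.

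The 4 genes at or near 0 in ZH11 did not pass the drought test in the line that expressed them. In OsJAZ1-OE the log2FC under drought was -0.10 ± 0.13 for LOC_Os11g31500, 0.23 ± 0.18 for LOC_Os11g31510, -0.03 ± 0.27 for LOC_Os11g31630 and -0.03 ± 0.24 for LOC_Os11g35300, with edgeR adjusted p-values of 0.35 to 0.94. LOC_Os11g35850 was at -0.97 ± 0.18 in ZH11 (edgeR adjusted p = 0.0012), and its value in OsJAZ1-OE was -0.33 ± 0.13 (edgeR adjusted p = 0.060). LOC_Os11g31540 fell by -0.64 ± 0.23 in OsJAZ1-OE (edgeR adjusted p = 0.043) and its value in ZH11 was -0.12 ± 0.25.

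Of the pair called in 1 condition between the lines, LOC_Os11g34570 had a log2FC under drought of -2.59 ± 0.67 in ZH11, where it was called, and of -0.51 ± 0.43 in OsJAZ1-OE. The ZH11 call was lost without ZH11 drought 2 (log2FC -2.09). LOC_Os11g34710 was called in OsJAZ1-OE with -3.11 ± 0.75, and its value in ZH11, where it had at most 5.23 counts in a library, was -2.72 ± 1.45. The OsJAZ1-OE call was lost without OsJAZ1-OE drought 1 (-2.54).

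**Figure D5:**
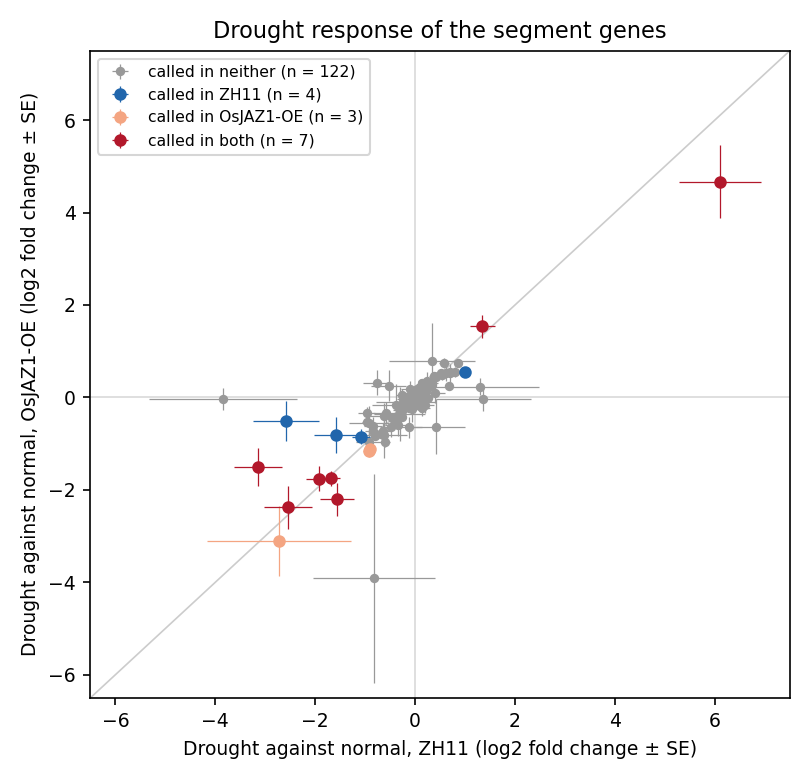
Log2FC of drought against normal watering in ZH11 (x axis) and in OsJAZ1-OE (y axis) for the 136 tested genes, each ± SE, with the line of equal response. Genes called in both genotypes (7) are red, in ZH11 (4) blue, in OsJAZ1-OE (3) orange and in neither (122) grey. The 7 red points lie on the same side of 0 in both genotypes. Shares over all genes were not computed for these classes. The grey point at -3.84 in ZH11 is LOC_Os11g35300, whose ZH11 libraries hold 0 to 3.14 counts.

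Whether a gene's response to drought differed between the genotypes was tested as an interaction in the same fit. This value is built from the line differences in each condition, for which the segment was chosen, so its p-values are not independent of that choice. By edgeR, 0 of the 136 genes were called, and 0 of all 24850 (0.0% called). At an unadjusted p under 0.05 there were 11 of the 136, against 8.44% over all genes. DESeq2 called 1 of the segment's genes and 105 over the genome, and limma on log2(FPKM + 0.1) called 0 and 5. Shares over all genes were not computed for these fits, so nothing is read from their counts about the segment. Over the 136 genes the responses of ZH11 and OsJAZ1-OE, which share no library, correlated with a Pearson r of 0.794. Genes are not independent replicates, so no p is given for it.

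The 3 genes with the lowest p for the interaction were moderately or highly expressed. LOC_Os11g34270 rose under drought from 38.5, 39.5 and 35.8 FPKM to 63.4 and 55.2 FPKM in ZH11 and from 36.5, 40.5 and 41.9 FPKM to 42.7 and 45.8 FPKM in OsJAZ1-OE. The rise was 0.68 ± 0.07 in ZH11 and 0.24 ± 0.07 in OsJAZ1-OE on the log2 scale, and the difference of -0.44 ± 0.10 had an edgeR adjusted p of 0.29. LOC_Os11g32500 fell from 358, 309 and 329 FPKM to 195 and 155 FPKM in ZH11 and from 288, 279 and 262 FPKM to 211 and 182 FPKM in OsJAZ1-OE. Its fall was -0.97 ± 0.10 and -0.53 ± 0.10, with a difference of 0.44 ± 0.13 (edgeR adjusted p = 0.44). The third was LOC_Os11g32260, described above, with a difference of -0.45 ± 0.15 (edgeR adjusted p = 0.46).

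The most abundant genes of the segment responded to drought in different ways. LOC_Os11g34450 rose from 195 to 205 FPKM in the ZH11 normal libraries to 358 and 359 FPKM, and from 219 to 224 FPKM to 349 and 373 FPKM in OsJAZ1-OE. The rise was 0.87 ± 0.06 in ZH11 (edgeR adjusted p = 9.7e-07) and 0.74 ± 0.06 in OsJAZ1-OE (edgeR adjusted p = 4.4e-06), and these were the lowest adjusted p-values of the segment in each genotype. LOC_Os11g31900 fell slightly, from 262 to 310 FPKM to 206 and 232 FPKM in ZH11 and from 264 to 275 FPKM to 191 and 218 FPKM in OsJAZ1-OE, by -0.45 ± 0.08 in ZH11 (edgeR adjusted p = 0.0010) and -0.46 ± 0.08 in OsJAZ1-OE (edgeR adjusted p = 0.0013). LOC_Os11g32650 gave 0.04 ± 0.09 and 0.19 ± 0.09 and LOC_Os11g34940, at 152 to 209 FPKM, gave -0.26 ± 0.13 and 0.05 ± 0.13, and neither passed the adjusted p in either genotype.

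Gene models in the segment often overlap. Of the 139 genes, 26 share bases with at least 1 other model, among them the called pair at the start, LOC_Os11g34570 and LOC_Os11g34750, a long model that overlaps 10 others. Counting the overlapping pair at the start once, the genes called higher in both conditions come to 6.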

How the data were processed

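Shoot RNA was sequenced in 10 libraries of ZH11 and OsJAZ1-OE. The deposited tables hold, for each transcript, an FPKM and an expected count that the authors made from the reads. The submitters' processing notes name TopHat2, Picard, SAMtools 0.1.18 and GATK, and no source used here names the genome build. The deposited expected counts are scaled per library, so that 1 read was worth 0.884 to 1.19, and 89.7 to 90.9% of gene sums up to 1000 are whole multiples of that step (within 0.01). Transcript values were added up per gene. Counts were rounded and fitted with edgeR 4.0.16 (TMM, filterByExpr, quasi-likelihood F-test, all 10 libraries, 1 mean per group, R 4.3.3), with Benjamini-Hochberg adjustment over the 24850 genes kept. Calls needed an adjusted p under 0.05 and a log2FC of 1 or more in either direction, or the adjusted p alone for the interaction. Fits were tested on simulated data. SE was obtained from the F-test, as the size of the log2FC divided by the square root of F. For genes with under 10 counts in ZH11 it may be smaller than the counting error. The members and the lists were chosen with earlier results of these data known. Named are genes with lines that did not overlap and at least 2-fold differences in both conditions, up to 4 rises and 4 falls under drought per genotype, the 3 lowest interaction p-values, the 5 most abundant, the annotated genes and those at the borders. Alternatives were DESeq2 1.42.0, limma 3.58.1 on log2(FPKM + 0.1) for genes at 0.5 FPKM or more, RLE size factors, no filter, at least 50 counts in each library of 1 group, the compared groups alone, a replicate block, no fold limit (a limit of 1 for the interaction), counts divided by the step, members at 0.5 or 5 FPKM, and leaving out each library.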

Additional observations from a re-analysis of the deposited data

Results flagged for a closer look

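LOC_Os11g34270 is listed here because a test of the difference between the genotypes called its drought response. By DESeq2 its rise under drought was smaller in OsJAZ1-OE than in ZH11 by -0.44 on the log2 scale (DESeq2 adjusted p = 0.0090), and both OsJAZ1-OE drought libraries were below both ZH11 drought libraries. The same difference had an adjusted p of 0.29 by edgeR, so the call depends on the tool, and the cause was not tested. DESeq2 called 105 genes over the genome, and the share this makes of all genes was not computed.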

How the results depend on the processing

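Counts of called genes stayed within 1.5 times of the reported ones under most settings. With members at 5 FPKM or more, the counts fell to 3 and 3 for the lines (3 in both conditions, an alternative chosen after seeing the data, as were all others for the count in both conditions) and to 6 and 4 for drought in ZH11 and OsJAZ1-OE, since fewer genes are in the list. With no fold limit they were 13 for the lines with normal watering and 53 and 47 for drought. The interaction count was 1 by DESeq2 and 0 under the other settings, and the fit of only the groups compared is the same fit there. Leaving out each library in turn gave 7 to 8 calls between the lines with normal watering, 6 to 8 under drought, 6 to 7 in both, 8 to 12 for drought in either genotype, and 0 for the interaction. Replicate numbers were not taken to pair the samples, since not every pair with the same number had deviations correlated over 0.1 (-0.10 to 0.24, over 0.1 in 6 of 13 pairs and above 0 in 11), and not every library correlated best with its own number. With the replicate block the counts were 8 and 8 for the lines (7 in both conditions), 11 and 11 for drought in ZH11 and OsJAZ1-OE and 0 for the interaction. Among single named genes no called value changed direction, and in 30 cases a call was lost and in 11 gained, beside 2357 with little change. In a further 77, values of genes that were not called moved by more than their SE. With 2 drought libraries per genotype, and under 10 counts in ZH11 for several members, the depth limits what could be detected there.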
